A study of Homo sapiens with 12 samples.

Results

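The genes described here are the subunits of RNA polymerase II, the general transcription factors that load it at promoters, and the TBP-associated factors (TAFs), measured in A673 cells, a human Ewing sarcoma line that carries the EWS-FLI1 fusion. Members were all genes whose annotated symbol begins with POLR2 or GTF2, or is TAF followed by a number with an optional L or B, and each was represented by a probe set annotated with that symbol alone. The rule gave 45 genes of the 18404 genes tested, and it used no measured value. Another 11 symbols of these families (GTF2A1L, GTF2H2, GTF2H2B, GTF2H2C, GTF2H2C_2, GTF2IRD2, GTF2IRD2B, POLR2J2, POLR2J3, POLR2J4 and TAF9) sat only on probe sets shared with other symbols and were given no value.

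Gene expression was measured on 12 Affymetrix HuGene 1.0 ST arrays, 2 for each of 6 groups of A673 cells, to set the transcriptional response to actinomycin D beside that to loss of the fusion. A first set received 5 nM or 50 nM actinomycin D for 24 h, with DMSO for 24 h as the vehicle and untreated cells at 0 h as the starting point. A second set was infected with virus carrying FLI1 shRNA or lacZ shRNA and selected in puromycin, with 48 h given as the time for both. All groups are 1 cell line without added alleles, and the shRNA groups are selected pools. The methods give duplicate treatments for DMSO and 5 nM, whereas neither they nor the labels say whether the 2 arrays of each other group came from separate cultures, so p-values may there reflect technical spread only. Values are RMA log2 signals, a normalised brightness on which 1 unit is a 2-fold step, and they are relative to a fixed mass of RNA, so that fewer cells and less RNA per cell cannot be told apart.

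RNA polymerase II transcribes every messenger RNA. At a promoter, TFIID (the TATA-binding protein TBP with its TAFs) recognises the core sequence, TFIIA and TFIIB stabilise it and bridge to the polymerase, TFIIF escorts the enzyme, and TFIIE brings in TFIIH, whose helicase opens the DNA and whose kinase phosphorylates the polymerase tail. Actinomycin D intercalates into DNA and blocks elongating polymerases, and at low doses it acts first on polymerase I at the ribosomal RNA genes.

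Array medians lay between 6.67 and 6.83, and the 2 arrays of a group correlated at 0.9935 to 0.9962. FLI1, the shRNA target, had signals of 7.30 and 7.08 with FLI1 shRNA, against 8.63 and 8.45 with lacZ shRNA (log2 change −1.35, SE 0.09, adjusted p = 5.4e-06). It also fell at 50 nM actinomycin D (−0.95, adjusted p = 1.7e-05), with −0.08 at 5 nM (adjusted p = 0.48). Of the Ewing sarcoma markers chosen to check the cells, 5 of 6 were measured and all 5 lay above the median level of all genes. Of the epithelial, blood and endothelial markers, 11 were measured and only KRT14 lay above that median. The summed log2 signals of the marker lists moved with treatment. The 5 Ewing sarcoma markers summed to 55.77 to 55.96 with DMSO, 54.07 to 54.22 at 5 nM and 53.53 to 53.58 at 50 nM, and to 52.31 to 52.54 with FLI1 shRNA, against 56.26 to 56.35 with lacZ shRNA. The other lists were higher at both doses without overlap, with 14.08 to 14.71 (DMSO), 15.37 to 15.87 (5 nM) and 15.26 to 15.32 (50 nM) for the 3 blood markers, 23.04 to 23.71, 23.96 to 24.88 and 24.08 to 24.18 for the 4 epithelial markers, and 22.40 to 22.82, 23.46 to 23.60 and 23.38 to 23.62 for the 4 endothelial markers. Of these 3 lists only the endothelial sum did not overlap between the shRNA groups (24.10 to 24.18 with FLI1 shRNA, against 22.62 to 23.31 with lacZ shRNA). Their part in the results was not tested.

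RefSeq promoter windows (GRCh38.p14) were matched by Entrez gene identifier for 35 of the 45 members. GTF2E2, GTF2I, POLR2G, POLR2I, POLR2J, POLR2K, TAF15, TAF1L, TAF2 and TAF8 had none. In the 150 bases before the annotated start, read on both strands, the ETS core CCGGAAG stood in 11 members (31.4%), against 9.99% of the 14228 genes with a window. It is the short element that ETS factors such as FLI1 bind. The E-box CACGTG stood in 6 members (17.1%), against 5.76% of all windows, the CCAAT box CCAAT in 7 (20.0%), against 26.4%, and the GC box GGGCGG in 17 (48.6%), against 51.2%. The TATA box TATAAA was found in GTF2B alone (2.86%), against 5.81%. CACGTG reads alike on both strands, and no searched motif is contained in another. Windows are shown for 4 genes that were higher at 5 nM than with DMSO and lower at 50 nM than at 5 nM (GTF2B, POLR2A, TAF7 and TAF5L), for 2 of the genes with the largest falls at 5 nM (GTF2IRD1 and GTF2F2), and for the 2 members with an ETS core whose change with FLI1 shRNA was largest in either direction (GTF2H3 and TAF1). The windows are GTF2B at chr1:88891568-88891717 on the minus strand, POLR2A at chr17:7484216-7484365 on the plus strand, TAF7 at chr5:141320785-141320934 on the minus strand, TAF5L at chr1:229626123-229626272 on the minus strand, GTF2IRD1 at chr7:74453756-74453905 on the plus strand, GTF2F2 at chr13:45120360-45120509 on the plus strand, GTF2H3 at chr12:123633679-123633828 on the plus strand and TAF1 at chrX:71366207-71366356 on the plus strand. Each runs 5′ to 3′ on the strand of its gene, and the capitals mark the searched motifs or their reverse complements.
GTF2B: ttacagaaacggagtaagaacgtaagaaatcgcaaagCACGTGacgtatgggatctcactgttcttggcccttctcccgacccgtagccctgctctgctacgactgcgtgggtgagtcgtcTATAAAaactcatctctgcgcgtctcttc
POLR2A: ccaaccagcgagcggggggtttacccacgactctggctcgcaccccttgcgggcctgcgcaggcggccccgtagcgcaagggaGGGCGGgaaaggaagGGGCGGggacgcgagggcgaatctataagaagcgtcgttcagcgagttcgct
TAF7: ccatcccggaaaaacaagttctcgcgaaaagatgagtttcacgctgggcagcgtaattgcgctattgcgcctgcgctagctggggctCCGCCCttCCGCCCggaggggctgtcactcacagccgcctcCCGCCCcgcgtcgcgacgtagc
TAF5L: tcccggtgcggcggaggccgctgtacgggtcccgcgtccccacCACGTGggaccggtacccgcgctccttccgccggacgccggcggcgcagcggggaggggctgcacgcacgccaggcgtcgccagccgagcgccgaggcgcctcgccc
GTF2IRD1: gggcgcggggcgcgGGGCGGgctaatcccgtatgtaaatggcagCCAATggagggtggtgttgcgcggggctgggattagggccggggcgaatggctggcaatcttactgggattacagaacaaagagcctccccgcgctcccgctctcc
GTF2F2: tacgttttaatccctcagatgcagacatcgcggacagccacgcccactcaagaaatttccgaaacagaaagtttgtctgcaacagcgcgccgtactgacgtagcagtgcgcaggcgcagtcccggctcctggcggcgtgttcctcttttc
GTF2H3: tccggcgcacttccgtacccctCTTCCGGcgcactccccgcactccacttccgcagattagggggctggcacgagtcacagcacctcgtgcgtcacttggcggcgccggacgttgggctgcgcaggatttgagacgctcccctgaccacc
TAF1: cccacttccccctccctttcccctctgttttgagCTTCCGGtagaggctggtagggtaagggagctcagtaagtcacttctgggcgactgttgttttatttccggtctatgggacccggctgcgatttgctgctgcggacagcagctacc

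Actinomycin D at 5 nM moved the members in both directions. By limma's moderated test with Benjamini-Hochberg adjustment over all 18404 genes, 16 members rose (35.6%), against 30.3% of all genes, 17 fell (37.8%), against 23%, and 12 did not pass the threshold of 0.05. The median log2 change was −0.03 for the members and 0.12 for all genes. At the stricter threshold of a change over 2-fold with an adjusted p below 0.01, no member rose, against 2.64% of all genes, and 4 fell by that much (GTF2F2, GTF2I, GTF2IRD1 and TAF2), against 7.86%. At 50 nM, 13 members rose (28.9%), against 25.8% of all genes, 19 fell (42.2%), against 23.3%, and 13 did not pass. The median was −0.05 for the members and 0.10 for all genes. At this dose no member rose more than 2-fold, against 0.598% of all genes, and 5 fell by that much (GTF2B, GTF2E1, GTF2IRD1, TAF5 and TAF6L), against 5.38%. Both doses were set against the same 2 DMSO arrays.

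The choice of scale moved these counts. When each array was instead centred on 52 ribosomal protein genes, the median of all genes became −0.25 at 5 nM and −0.17 at 50 nM, 6 members were higher and 28 lower at 5 nM (8.75% and 46.1% of all genes), and 5 were higher and 25 lower at 50 nM (4.90% and 39.1% of all genes). Median centring gave 16 higher and 15 lower members at 50 nM (38.0% and 20.6% of all genes). The 6 that were higher at 5 nM on both scales were GTF2B, POLR2A, POLR2K, TAF13, TAF5L and TAF7. The 5 at 50 nM were GTF2H5, POLR2F, POLR2G, POLR2I and POLR2J. The members' median minus that of all genes was −0.14 at 5 nM and −0.15 at 50 nM as deposited, a difference that centring cannot alter, and −0.06 and 0.0014 after a further quantile normalization. The direct comparison of the doses, which does not use the DMSO arrays, found 15 members higher at 50 nM than at 5 nM (33.3%), against 21.6% of all genes, and 13 lower (28.9%), against 23.1%.

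**Figure D1:**
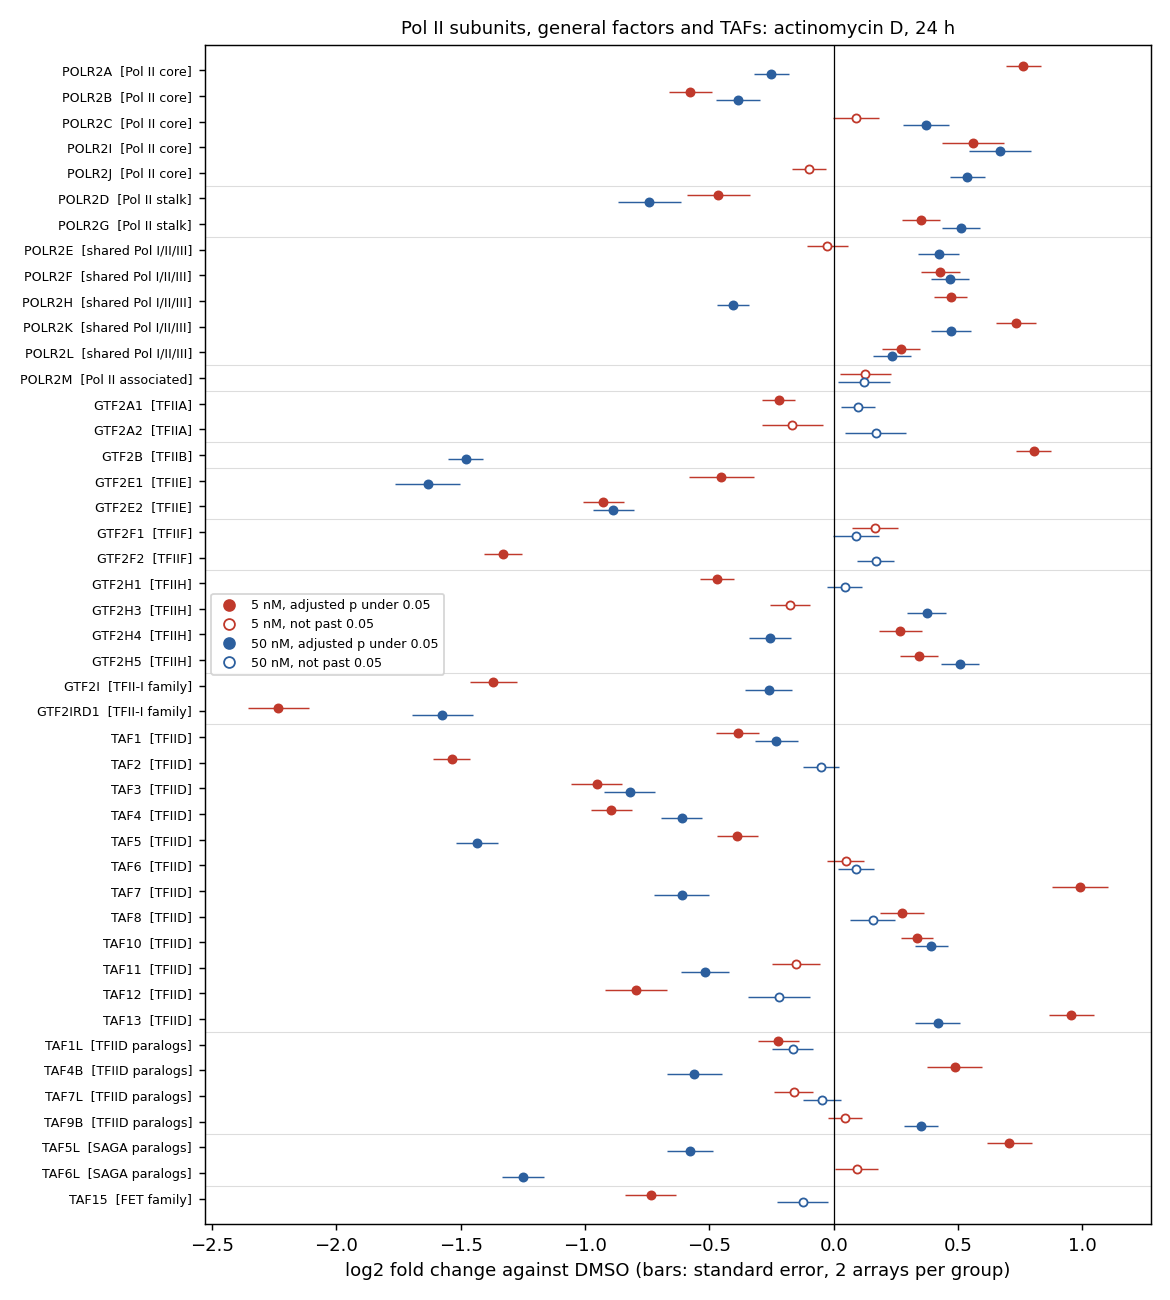
Log2 fold change of each of the 45 members against DMSO (horizontal axis, bars show the standard error) at 5 nM (red) and 50 nM (blue) actinomycin D, grouped by complex; filled points passed an adjusted p of 0.05. GTF2B, POLR2A, POLR2H, GTF2H4, TAF7, TAF4B, TAF5L and TAF6L lie right of 0 at 5 nM and left of it at 50 nM. The point of TAF6L at 5 nM is open. GTF2IRD1 lies farthest left at 5 nM (−2.23).

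Among the polymerase subunits, the 2 large ones that form the active centre parted at 5 nM. POLR2A, which carries the C-terminal repeat domain, had log2 signals of 11.16 and 11.17 with DMSO, 11.87 and 11.99 at 5 nM and 10.86 and 10.97 at 50 nM. The 3 groups did not overlap, with 5 nM highest and 50 nM lowest. It rose by 0.76 at 5 nM (SE 0.07, adjusted p = 5e-06), fell by 0.25 at 50 nM (SE 0.07, adjusted p = 0.013; 0.091 without array 1 at 50 nM, 0.053 and 0.052 without either DMSO array, 0.064 after median centring), and stood 1.01 lower at 50 nM than at 5 nM (adjusted p = 5.4e-07). POLR2B, the other large subunit, had 10.20 and 10.36 with DMSO, 9.79 and 9.62 at 5 nM and 9.94 and 9.86 at 50 nM. Both doses lay below DMSO (−0.58, SE 0.09, adjusted p = 2.1e-04 at 5 nM and −0.38, SE 0.09, adjusted p = 0.0042 at 50 nM), and the difference between the doses, 0.19 (SE 0.09), did not pass (adjusted p = 0.1).

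On the deposited scale no small core subunit fell. POLR2I, which takes part in transcript cleavage and fidelity, had 8.65 and 8.70 with DMSO, 9.45 and 9.02 at 5 nM and 9.44 and 9.25 at 50 nM. Both doses were above DMSO (0.56, adjusted p = 0.003 and 0.67, adjusted p = 0.0013, SE 0.12 for each), although on the ribosomal protein scale the change at 5 nM was 0.19 and did not pass (adjusted p = 0.18). POLR2J, an assembly subunit with near-identical copies that may share its probes, had 8.50 and 8.45 with DMSO, 8.38 and 8.37 at 5 nM and 8.97 and 9.05 at 50 nM. It was higher at 50 nM by the test against DMSO (0.54, SE 0.07, adjusted p = 1.1e-04), its −0.10 at 5 nM did not pass (−0.47 and adjusted p = 1.9e-04 on the ribosomal protein scale), and it was 0.64 higher at 50 nM than at 5 nM (adjusted p = 1.7e-05). Its assembly partner POLR2C changed by 0.09 at 5 nM (adjusted p = 0.43; −0.28 on the ribosomal protein scale, adjusted p = 0.017) and rose by 0.37 at 50 nM (adjusted p = 0.0074; 0.10 and adjusted p = 0.38 on the ribosomal protein scale; adjusted p = 0.065 without array 1 at 50 nM and 0.058 without array 1 of DMSO).

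The stalk, a pair of subunits that docks beside the RNA exit channel, moved apart. POLR2D had 9.81 and 10.22 with DMSO, 9.61 and 9.49 at 5 nM and 9.29 and 9.26 at 50 nM. It fell at both doses (−0.46, adjusted p = 0.010 and −0.74, adjusted p = 7.7e-04, SE 0.13 for each), and the call at 5 nM was lost without DMSO array 2 (−0.26, adjusted p = 0.096) or 5 nM array 2 (−0.41, adjusted p = 0.063). POLR2G had 9.04 and 9.11 with DMSO, 9.49 and 9.35 at 5 nM and 9.63 and 9.53 at 50 nM, and it rose by 0.35 (adjusted p = 0.0029) and 0.51 (adjusted p = 3.3e-04, SE 0.08 for each), of which the first became −0.02 on the ribosomal protein scale.

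The 5 subunits that polymerase II shares with polymerases I and III had 4 rises (80.0%) and no fall at 5 nM on the deposited scale. Of all genes, 30.3% rose and 23% fell. POLR2E, POLR2H, POLR2K and POLR2L span under 10 kb, and of protein-coding genes that short 47.3% rose and 3.66% fell at 5 nM. POLR2K had 10.85 and 10.97 with DMSO, 11.68 and 11.61 at 5 nM and 11.35 and 11.41 at 50 nM, so both doses were above DMSO and 5 nM was above 50 nM. Its changes were 0.73 (adjusted p = 1.9e-05) and 0.47 (adjusted p = 7.5e-04, SE 0.08 for each), of which the second was 0.20 on the ribosomal protein scale (adjusted p = 0.062). POLR2H had 11.69 and 11.70 with DMSO, 12.20 and 12.13 at 5 nM and 11.31 and 11.27 at 50 nM. It was the shared subunit that turned with dose, with 0.47 at 5 nM (adjusted p = 1.1e-04), −0.40 at 50 nM (adjusted p = 5.1e-04, SE 0.07 for each) and a difference of −0.88 between 50 nM and 5 nM (adjusted p = 9.1e-07). POLR2F had 10.54 and 10.47 with DMSO, 11.01 and 10.86 at 5 nM and 11.03 and 10.91 at 50 nM, and rose by 0.43 (adjusted p = 7.8e-04) and 0.47 (adjusted p = 6.2e-04, SE 0.08 for each). On the ribosomal protein scale the rises of POLR2F (0.06) and POLR2H (0.10) at 5 nM did not pass, and those of POLR2L changed sign at both doses (0.27 and 0.23 as deposited, −0.10 and −0.04 after centring). POLR2E had 11.00 and 11.07 with DMSO, 11.13 and 10.90 at 5 nM and 11.46 and 11.46 at 50 nM, and was higher at 50 nM (0.42, SE 0.08, adjusted p = 0.0019), with −0.03 at 5 nM (adjusted p = 0.81). On the ribosomal protein scale POLR2E fell at 5 nM (−0.40, adjusted p = 9.9e-04) and its 0.15 at 50 nM did not pass (adjusted p = 0.13). POLR2M, a polymerase-associated factor that represses initiation until Mediator counters it, changed by 0.13 at 5 nM (−0.24 on the ribosomal protein scale, adjusted p = 0.048) and by 0.12 at 50 nM, and neither passed on the deposited scale.

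**Figure D2:**
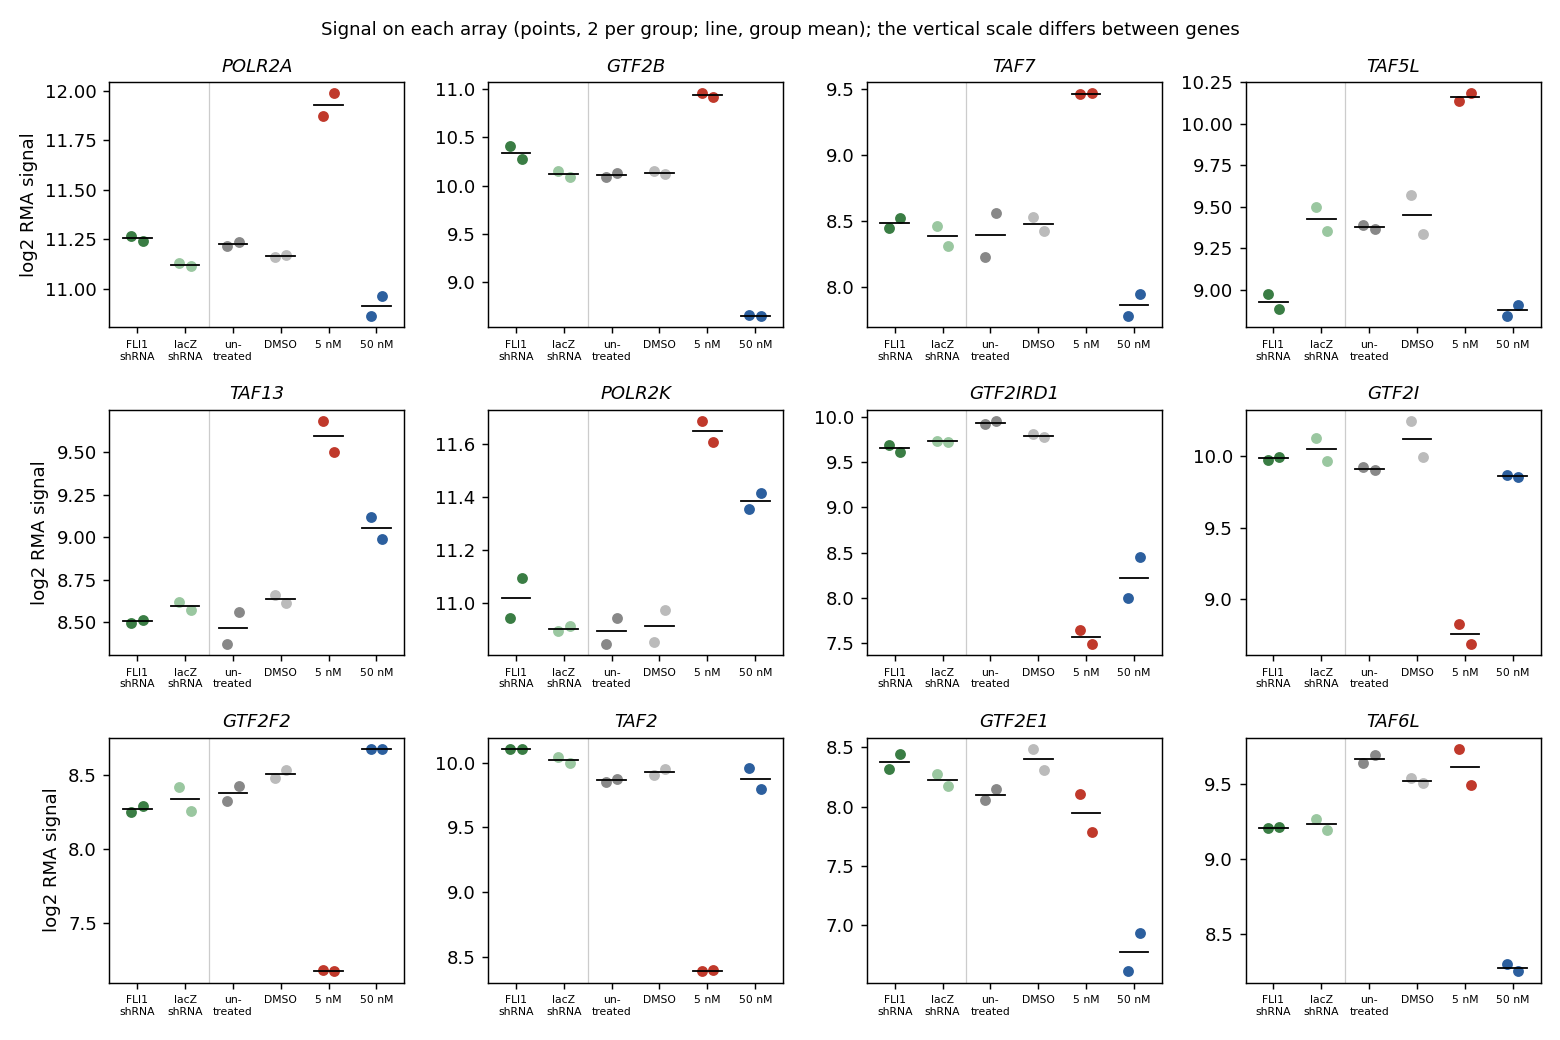
Log2 RMA signal on each array (points, 2 per group) with the group mean (line) for 12 members, with groups along the horizontal axis. POLR2A, GTF2B, TAF7 and TAF5L are highest at 5 nM and below DMSO at 50 nM, whereas GTF2F2 and TAF2 are lowest at 5 nM and near their DMSO signals at 50 nM.

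Of the factors that build the initiation complex, GTF2B, which encodes TFIIB, had the largest difference between the doses of any member. Its signals were 10.15 and 10.11 with DMSO, 10.95 and 10.92 at 5 nM and 8.66 and 8.65 at 50 nM. The 2 arrays of each group lay close together and no groups overlapped. It rose by 0.80 at 5 nM (SE 0.07, adjusted p = 3.4e-06), fell by 1.48 at 50 nM (adjusted p = 1.2e-07) and differed by −2.28 between 50 nM and 5 nM (adjusted p = 8.7e-09). It is also the member whose printed window holds both TATAAA and CACGTG.

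The changes of the TFIIA genes were small on the deposited scale and larger on the ribosomal protein scale. GTF2A1 fell by 0.22 at 5 nM (SE 0.07, adjusted p = 0.018), a call lost without DMSO array 2 (adjusted p = 0.083) or 5 nM array 2 (adjusted p = 0.09), and changed by 0.10 at 50 nM (adjusted p = 0.26; 0.18 and adjusted p = 0.045 after median centring). GTF2A2 changed by −0.17 and 0.17, neither of which passed. At 5 nM on the ribosomal protein scale both fell, GTF2A1 by 0.59 (adjusted p = 2.1e-05) and GTF2A2 by 0.54 (adjusted p = 0.0031). For GTF2A2 the 0.34 between 50 nM and 5 nM (adjusted p = 0.047) was lost without 5 nM array 2 (adjusted p = 0.26) or 50 nM array 1 (adjusted p = 0.35).

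Both TFIIE subunits fell at both doses. GTF2E1 had 8.49 and 8.31 with DMSO, 8.11 and 7.79 at 5 nM and 6.60 and 6.93 at 50 nM, which made it the member with the largest fall at 50 nM (−1.63, SE 0.13, adjusted p = 3.1e-06). Its fall at 5 nM, 0.45 (adjusted p = 0.013), was lost without 5 nM array 2 (−0.29, adjusted p = 0.12) or DMSO array 1 (−0.36, adjusted p = 0.10). GTF2E2 had 9.46 and 9.43 with DMSO, 8.49 and 8.55 at 5 nM and 8.67 and 8.45 at 50 nM. The doses overlapped there, with changes of −0.93 (adjusted p = 3.7e-06) and −0.89 (adjusted p = 9.7e-06, SE 0.08 for each) and a difference of 0.04 between 50 nM and 5 nM that did not pass.

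The TFIIF pair parted. GTF2F2, the smaller subunit, had 8.48 and 8.53 with DMSO, 7.18 and 7.17 at 5 nM and 8.67 and 8.68 at 50 nM. It was low at 5 nM alone (−1.33, SE 0.08, adjusted p = 1.3e-07), its 0.17 at 50 nM did not pass (adjusted p = 0.086; 0.25 and adjusted p = 0.017 after median centring), and it was 1.50 higher at 50 nM than at 5 nM (adjusted p = 6e-08), the largest such difference among members. GTF2F1, the larger subunit, changed by 0.17 and 0.09, neither of which passed.

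TFIIH genes of the GTF2H family did not move as a block. GTF2H1, a core subunit, had 9.39 and 9.48 with DMSO, 8.99 and 8.93 at 5 nM and 9.50 and 9.46 at 50 nM, a fall of 0.47 at 5 nM (SE 0.07, adjusted p = 1.7e-04) with 0.04 at 50 nM (−0.23 and adjusted p = 0.019 on the ribosomal protein scale). GTF2H5, the small subunit that keeps the complex stable, had 8.98 and 9.02 with DMSO, 9.34 and 9.34 at 5 nM and 9.50 and 9.51 at 50 nM. It rose by 0.34 (adjusted p = 0.0031; −0.03 on the ribosomal protein scale) and 0.51 (adjusted p = 3.2e-04, SE 0.08 for each). GTF2H3 changed by −0.18 at 5 nM (adjusted p = 0.085; −0.55 and adjusted p = 1.2e-04 on the ribosomal protein scale) and rose by 0.37 at 50 nM (adjusted p = 0.0029; 0.10 and adjusted p = 0.31 on the ribosomal protein scale). GTF2H4 changed by 0.27 (adjusted p = 0.021; −0.10 on the ribosomal protein scale) and −0.26 (adjusted p = 0.029), and each call was lost when single arrays were left out (adjusted p up to 0.11 for both), the second also after median centring (adjusted p = 0.094).

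TFII-I and its relative GTF2IRD1 are sequence-specific factors rather than members of the initiation complex, and GTF2IRD1 had the deepest fall of any member at 5 nM. Its signals were 9.81 and 9.78 with DMSO, 7.64 and 7.49 at 5 nM and 7.99 and 8.45 at 50 nM. Both doses lay far below DMSO (−2.23, adjusted p = 1.1e-07 and −1.57, adjusted p = 2.7e-06, SE 0.12 for each), with 50 nM above 5 nM by 0.66 (adjusted p = 0.001). GTF2I, which has near-identical pseudogene copies that may share its probes, had 10.25 and 10.00 with DMSO, 8.82 and 8.69 at 5 nM and 9.87 and 9.85 at 50 nM. It fell by 1.37 at 5 nM (SE 0.09, adjusted p = 5.6e-07) and was 1.11 higher at 50 nM than at 5 nM (adjusted p = 2.5e-06). Its −0.26 at 50 nM (adjusted p = 0.042) did not pass without DMSO array 1 (−0.14, adjusted p = 0.32) without either 50 nM array (adjusted p = 0.11 and 0.13) or after median centring (adjusted p = 0.13).

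Of the 12 canonical TFIID subunits, 4 rose (33.3%) and 6 fell (50.0%) at 5 nM, against 30.3% and 23% of all genes, and 2 rose (16.7%) and 6 fell (50.0%) at 50 nM, against 25.8% and 23.3%. The genes that fell at 5 nM were TAF1, TAF2, TAF3, TAF4, TAF5 and TAF12. TAF2, which contacts the initiator element, had 9.90 and 9.95 with DMSO, 8.39 and 8.40 at 5 nM and 9.96 and 9.80 at 50 nM. It was low at 5 nM (−1.54, SE 0.07, adjusted p = 3.7e-08), overlapped DMSO at 50 nM (−0.05; −0.32 and adjusted p = 0.0051 on the ribosomal protein scale), and was 1.49 higher at 50 nM than at 5 nM (adjusted p = 5e-08). TAF3, a reader of methylated histone tails, had 9.13 and 9.22 with DMSO, 8.39 and 8.05 at 5 nM and 8.31 and 8.40 at 50 nM. Its falls were alike in size (−0.95, adjusted p = 1.6e-05 and −0.82, adjusted p = 8.5e-05, SE 0.10 for each), and the 0.13 between 50 nM and 5 nM did not pass. TAF4, the scaffold subunit, had 9.06 and 8.92 with DMSO, 8.14 and 8.05 at 5 nM and 8.40 and 8.36 at 50 nM, and fell by 0.89 (adjusted p = 5.5e-06) and 0.61 (adjusted p = 1.6e-04, SE 0.08 for each). Its histone-fold partner TAF12 had 8.52 and 8.35 with DMSO, 7.77 and 7.52 at 5 nM and 8.22 and 8.21 at 50 nM, a fall of 0.80 at 5 nM (SE 0.13, adjusted p = 3e-04) with −0.22 at 50 nM (adjusted p = 0.17; −0.49 and adjusted p = 0.0048 on the ribosomal protein scale).

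TAF1, the largest TFIID subunit, had 8.30 and 8.36 with DMSO, 7.94 and 7.95 at 5 nM and 8.02 and 8.18 at 50 nM. It fell by 0.39 at 5 nM (SE 0.09, adjusted p = 0.0029), and its −0.23 at 50 nM (adjusted p = 0.045) was lost without 50 nM array 1 (−0.15, adjusted p = 0.25) either DMSO array (adjusted p = 0.093 and 0.16) or with median centring (adjusted p = 0.16). TAF5, a WD-repeat scaffold, had 8.54 and 8.38 with DMSO, 8.11 and 8.04 at 5 nM and 7.01 and 7.04 at 50 nM. It stepped down with dose, by 0.39 at 5 nM (adjusted p = 0.0025) and 1.43 at 50 nM (adjusted p = 3.9e-07, SE 0.08 for each), with −1.05 between 50 nM and 5 nM (adjusted p = 1.5e-06). TAF11 changed by −0.15 at 5 nM (adjusted p = 0.22; −0.52 and adjusted p = 3.5e-04 on the ribosomal protein scale) and fell by 0.52 at 50 nM (SE 0.10, adjusted p = 0.0014). TAF6 changed by 0.05 and 0.09, neither of which passed on the deposited scale (−0.32 at 5 nM on the ribosomal protein scale, adjusted p = 0.003).

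The rises within TFIID at 5 nM were those of TAF7, TAF13, TAF10 and TAF8. TAF7, which binds TAF1 and restrains it until initiation, had 8.53 and 8.42 with DMSO, 9.46 and 9.47 at 5 nM and 7.78 and 7.95 at 50 nM. It had the largest rise of any member at 5 nM (0.99, SE 0.11, adjusted p = 2.2e-05), fell by 0.61 at 50 nM (adjusted p = 0.0011) and differed by −1.60 between 50 nM and 5 nM (adjusted p = 5.3e-07). TAF13, the histone-fold partner of TAF11, had 8.66 and 8.61 with DMSO, 9.68 and 9.50 at 5 nM and 9.12 and 8.99 at 50 nM. Both doses were above DMSO (0.96, adjusted p = 5.6e-06 and 0.42, adjusted p = 0.0032, SE 0.09 for each), and the difference of 50 nM from 5 nM was −0.54 (adjusted p = 4.4e-04). On the ribosomal protein scale the rise of TAF13 at 50 nM was 0.15 (adjusted p = 0.16). TAF10, shared by TFIID and the coactivator SAGA, rose by 0.34 (adjusted p = 0.0013; −0.04 on the ribosomal protein scale) and 0.39 (adjusted p = 6.5e-04, SE 0.07 for each; 0.12 and adjusted p = 0.17 on that scale). TAF8 rose by 0.27 at 5 nM (SE 0.09, adjusted p = 0.024; −0.10 on the ribosomal protein scale), which was lost without 5 nM array 1 (0.17, adjusted p = 0.16) or either DMSO array (adjusted p = 0.11 and 0.057).

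Paralogs of TFIID subunits were set beside the genes they resemble, without a test between genes. TAF4B, which in mice serves germ cells, had low signals of 6.01 and 5.77 with DMSO, 6.51 and 6.25 at 5 nM and 5.40 and 5.26 at 50 nM. It rose by 0.49 (adjusted p = 0.0034; 0.12 and adjusted p = 0.32 on the ribosomal protein scale) and fell by 0.56 (adjusted p = 0.0019, SE 0.11 for each), where TAF4 fell at both doses. TAF5L and TAF6L replace TAF5 and TAF6 in SAGA. TAF5L had 9.57 and 9.34 with DMSO, 10.14 and 10.18 at 5 nM and 8.84 and 8.91 at 50 nM, a rise of 0.71 (adjusted p = 6.4e-05), a fall of 0.58 (adjusted p = 4.3e-04, SE 0.09 for each) and a difference of −1.28 between 50 nM and 5 nM (adjusted p = 6.1e-07). TAF6L had 9.54 and 9.51 with DMSO, 9.74 and 9.49 at 5 nM and 8.30 and 8.25 at 50 nM. It was low at 50 nM (−1.25, SE 0.08, adjusted p = 1e-06), with 0.09 at 5 nM (adjusted p = 0.38; −0.28 and adjusted p = 0.0068 on the ribosomal protein scale).

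TAF9B, the close copy of TAF9, had 11.38 and 11.36 with DMSO, 11.35 and 11.48 at 5 nM and 11.72 and 11.71 at 50 nM, and rose by 0.35 at 50 nM (SE 0.07, adjusted p = 0.0018; 0.08 and adjusted p = 0.47 on the ribosomal protein scale), with 0.05 at 5 nM (−0.32 on that scale, adjusted p = 0.0053). The testis-type genes TAF1L and TAF7L stood among the 3 members below the median level of all genes, together with TAF4B. TAF1L, an intronless copy of TAF1 whose probes may read TAF1 RNA, had 5.98 and 6.09 with DMSO, 5.83 and 5.80 at 5 nM and 5.86 and 5.89 at 50 nM, and its −0.22 at 5 nM (SE 0.08, adjusted p = 0.045) was lost without any 1 of the 4 arrays (adjusted p = 0.053 to 0.21). TAF7L changed by −0.16 and −0.05, neither of which passed on the deposited scale. On the ribosomal protein scale TAF7L fell at both doses (−0.53, adjusted p = 9.1e-05 and −0.32, adjusted p = 0.0040), and the −0.17 of TAF1L at 50 nM became −0.44 (adjusted p = 0.0023). TAF15, a relative of EWSR1 in the FET family of RNA-binding proteins that was first isolated with TFIID, had 9.39 and 9.70 with DMSO, 8.85 and 8.77 at 5 nM and 9.38 and 9.46 at 50 nM. It fell at 5 nM (−0.74, SE 0.10, adjusted p = 1.3e-04), overlapped DMSO at 50 nM (−0.12; −0.40 and adjusted p = 0.012 on the ribosomal protein scale), and was 0.61 higher at 50 nM than at 5 nM (adjusted p = 5.1e-04).

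Changes at 5 nM ran with the span of the gene in RefSeq. Of the 10 members that span over 75 kb, 8 fell and 2 rose (POLR2F and TAF4B), against 56.7% and 6.88% of the protein-coding genes of that span, with a median log2 change of −0.94, against −0.41 for those 4042 genes. Of the 13 members under 10 kb, 8 rose (61.5%) and 1 fell (TAF1L), against 47.3% and 3.66% of the protein-coding genes that short, with a median of 0.27, against 0.26 for those 4234 genes. Across the 45 members, Spearman's correlation of change with span was −0.572 at 5 nM and −0.437 at 50 nM, against −0.522 and −0.286 across 16897 protein-coding genes; these are descriptions across genes that share the same arrays and are not independent. At 50 nM the long members divided. GTF2F2 (164.4 kb) and TAF2 (102.1 kb) were near DMSO, whereas GTF2IRD1 (148.7 kb) and TAF3 (198.1 kb) were low at both doses. The deepest falls at 50 nM included GTF2B (38.9 kb), GTF2E1 (40.3 kb) and TAF5 (21.1 kb), and TAF7, at 2.3 kb, was high at 5 nM and low at 50 nM.

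**Figure D3:**
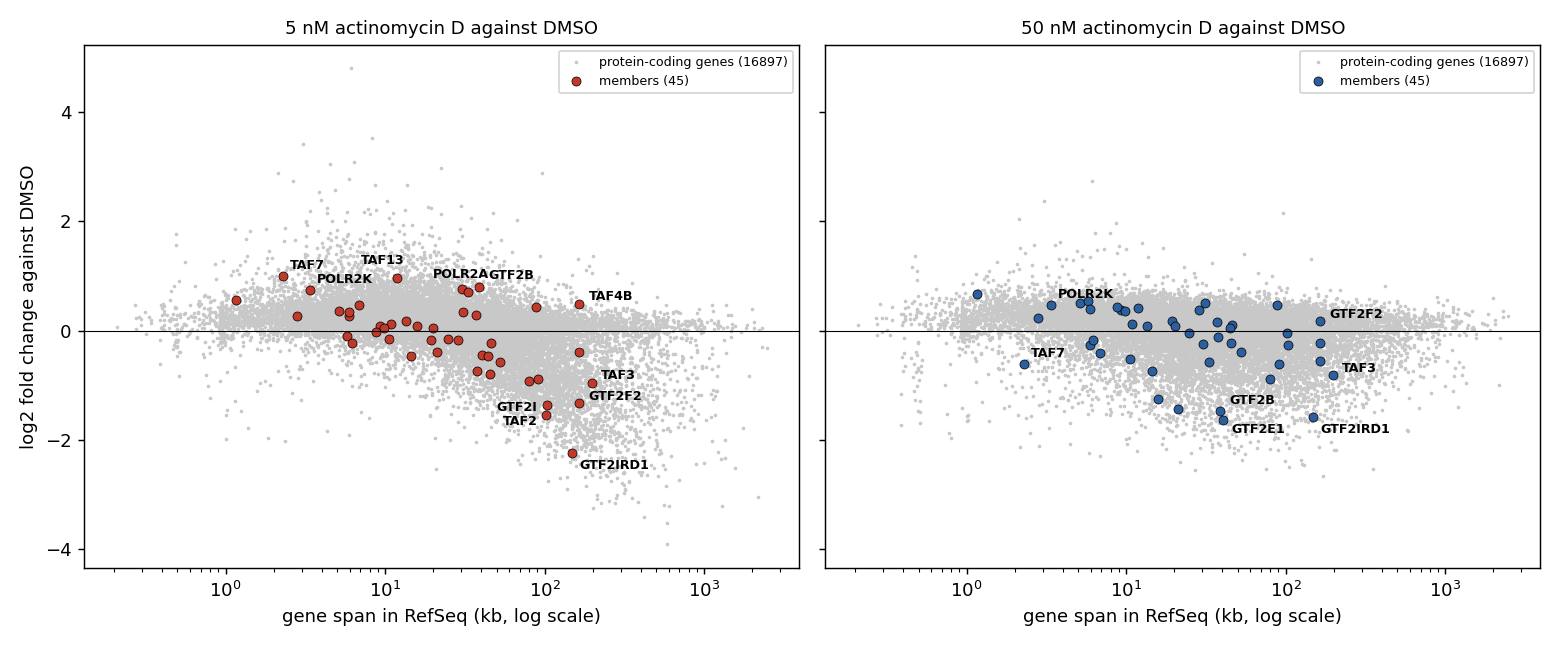
Log2 fold change against DMSO (vertical axis) against gene span in kb (log scale) for 16897 protein-coding genes (grey) and the 45 members (coloured), at 5 nM and 50 nM actinomycin D. At 5 nM the members run downward with span (Spearman −0.572), and at 50 nM mid-sized genes such as GTF2B and GTF2E1 are among the lowest.

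The machinery around the members was described from lists of partner genes. Calls on these genes were not followed on the other scales or without single arrays, as those of the members were. On the ribosomal protein scale the median of all genes moved from 0.12 to −0.25 at 5 nM and from 0.10 to −0.17 at 50 nM. Of all genes, 30.3% rose and 23% fell at 5 nM, and 25.8% rose and 23.3% fell at 50 nM. TBP itself, the DNA-binding subunit of TFIID, averaged 10.03 with DMSO, 10.56 at 5 nM and 8.97 at 50 nM. It rose by 0.53 at 5 nM (SE 0.11, adjusted p = 0.0021) and fell by 1.06 at 50 nM (adjusted p = 2.5e-05). Of the 5 genes on the list of TBP and its regulators, 3 rose (60.0%) and 1 fell (20.0%) at 5 nM. At 50 nM 1 rose (20.0%) and 3 fell (60.0%). BTAF1, the ATPase that strips TBP from DNA, fell at both doses (−1.45, adjusted p = 2.5e-07 and −1.07, adjusted p = 4.7e-06, SE 0.09 for each), and DRAP1, a subunit of the TBP repressor NC2, rose at both (1.11, adjusted p = 5.9e-06 and 1.12, adjusted p = 1e-05, SE 0.10 for each). Of the 5 other TFIIH subunits, 2 rose and 2 fell at 5 nM, and none rose and 3 fell at 50 nM. MNAT1, which assembles the TFIIH kinase, had the largest of these falls at 5 nM (−1.91, SE 0.09, adjusted p = 2.9e-08), and the kinase CDK7 fell by 0.88 at 50 nM (SE 0.08, adjusted p = 9.9e-06).

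Mediator, the coactivator that links activators to the polymerase, had 30 of 33 genes measured. At 5 nM 10 rose (33.3%), against 30.3% of all genes, and 13 fell (43.3%), against 23%. At 50 nM 7 rose (23.3%), against 25.8% of all genes, and 13 fell (43.3%), against 23.3%. MED13L, a subunit of its kinase module, fell by 2.90 at 5 nM (SE 0.07, adjusted p = 1.2e-09), and MED18 rose by 1.67 (SE 0.14, adjusted p = 2.8e-06). MED17, a core subunit, had the largest fall of the list at 50 nM (−1.97, SE 0.08, adjusted p = 5.9e-08). Among 14 SAGA partners, 5 rose (35.7%) and 7 fell (50.0%) at 5 nM, and 2 rose (14.3%) and 7 fell (50.0%) at 50 nM. TADA2B rose by 0.96 at 5 nM (SE 0.08, adjusted p = 3.3e-06) and fell by 1.20 at 50 nM (adjusted p = 1.3e-06), and the scaffold TRRAP fell by 1.68 at 5 nM (SE 0.07, adjusted p = 2.1e-08). Of 19 elongation factors measured of 21, 7 rose (36.8%) and 4 fell (21.1%) at 5 nM. At 50 nM 4 rose (21.1%) and 7 fell (36.8%). Among them IWS1 fell by 1.10 at 5 nM and 1.75 at 50 nM (SE 0.10, adjusted p = 6.5e-06 and 4.5e-07). Of 12 assembly factors and tail phosphatases, 2 rose (16.7%) and 8 fell (66.7%) at 5 nM. At 50 nM 1 rose (8.33%) and 6 fell (50.0%).

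The other nuclear polymerases were measured through the subunits they do not share with polymerase II. Of 8 polymerase I genes, 6 rose and 1 fell at 5 nM, against 30.3% and 23% of all genes. At 50 nM none rose and 5 fell, against 25.8% and 23.3% of all genes. In the direct comparison 7 were lower and 1 higher at 50 nM than at 5 nM, against 23.1% and 21.6% of all genes. The median log2 difference of the 8 genes between 50 nM and 5 nM was −0.88, against 0.02 for all genes. POLR1C, which polymerase III also uses, averaged 9.19 with DMSO, 10.81 at 5 nM and 8.89 at 50 nM, a rise of 1.62 at 5 nM (SE 0.11, adjusted p = 6.5e-07). POLR1A, the largest subunit of polymerase I, fell by 1.17 at 5 nM (SE 0.07, adjusted p = 1.4e-07). Of 10 polymerase III genes measured of 11, 1 rose (10.0%) and 6 fell (60.0%) at 5 nM. At 50 nM none rose and 6 fell (60.0%). The falls were led at both doses by POLR3B (−1.37, adjusted p = 2.5e-07 and −1.84, adjusted p = 9.5e-08, SE 0.08 for each).

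Knockdown of FLI1 left most members below the threshold, as it did most genes. With FLI1 shRNA against lacZ shRNA, 2 members rose (4.44%), against 14.6% of all genes, 7 fell (15.6%), against 9.28%, and 36 did not pass. The median log2 change was 0.04 for the members and −0.01 for all genes, and the 45 changes ran between −0.50 and 0.28. None passed 2-fold. No gene named POLR2 passed. POLR2A had 11.27 and 11.24 with FLI1 shRNA, against 11.13 and 11.11 with lacZ shRNA (0.13, SE 0.07, adjusted p = 0.21), and POLR2D had the largest difference of the polymerase genes, with 8.99 and 9.05 against 9.39 and 9.37 (−0.36, SE 0.13, adjusted p = 0.064).

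TAF5L and GTF2H3 fell and were the members whose calls held in every setting tried. TAF5L had 8.98 and 8.88 with FLI1 shRNA, against 9.50 and 9.36 with lacZ shRNA (−0.50, SE 0.09, adjusted p = 0.0024). GTF2H3 had 8.51 and 8.63 with FLI1 shRNA, against 9.04 and 8.89 with lacZ shRNA (−0.40, SE 0.08, adjusted p = 0.0041). In both the pairs of arrays did not overlap, which held for 35 of the 45 members and 11618 of the 18404 genes. TAF5 had 8.05 and 8.10 with FLI1 shRNA, against 8.50 and 8.32 with lacZ shRNA (−0.33, SE 0.08, adjusted p = 0.015), GTF2H1 had 9.13 and 9.22, against 9.46 and 9.43 (−0.27, SE 0.07, adjusted p = 0.018), and TAF1 was higher, with 8.55 and 8.65, against 8.41 and 8.22 (0.28, SE 0.09, adjusted p = 0.034). GTF2B had 10.41 and 10.27 with FLI1 shRNA, against 10.15 and 10.09 with lacZ shRNA (0.22, SE 0.07, adjusted p = 0.046). The remaining falls were in the 3 low-signal genes, TAF4B (5.46 and 5.56 with FLI1 shRNA, against 5.93 and 5.81 with lacZ shRNA; −0.36, adjusted p = 0.039), TAF7L (5.62 and 5.75, against 5.99 and 5.97; −0.29, adjusted p = 0.020) and TAF1L (5.80 and 5.90, against 6.03 and 6.22; −0.27, adjusted p = 0.038).

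Those 7 calls other than TAF5L and GTF2H3 were each lost when single arrays were left out. The highest adjusted p without an array was 0.30 for GTF2B and 0.14 for GTF2H1, both without FLI1 shRNA array 1, 0.25 for TAF1 and 0.27 for TAF1L, both without lacZ shRNA array 2, 0.19 for TAF4B and 0.16 for TAF7L, both without FLI1 shRNA array 1, and 0.11 for TAF5 without lacZ shRNA array 1. After median centring, none rose and 9 fell, against 11.9% and 11.7% of all genes. Of the 11 members whose promoter window holds CCGGAAG, TAF1 rose, GTF2H1 and GTF2H3 fell, and the other 8 changed by −0.09 to 0.25 and did not pass. Over all genes 14.6% rose and 9.28% fell, and a part for this element in the changes was not tested. TAF15, the relative of the fusion partner EWSR1, had 9.32 and 9.47 with FLI1 shRNA, against 9.57 and 9.49 with lacZ shRNA (−0.13, SE 0.10, adjusted p = 0.42).

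**Figure D4:**
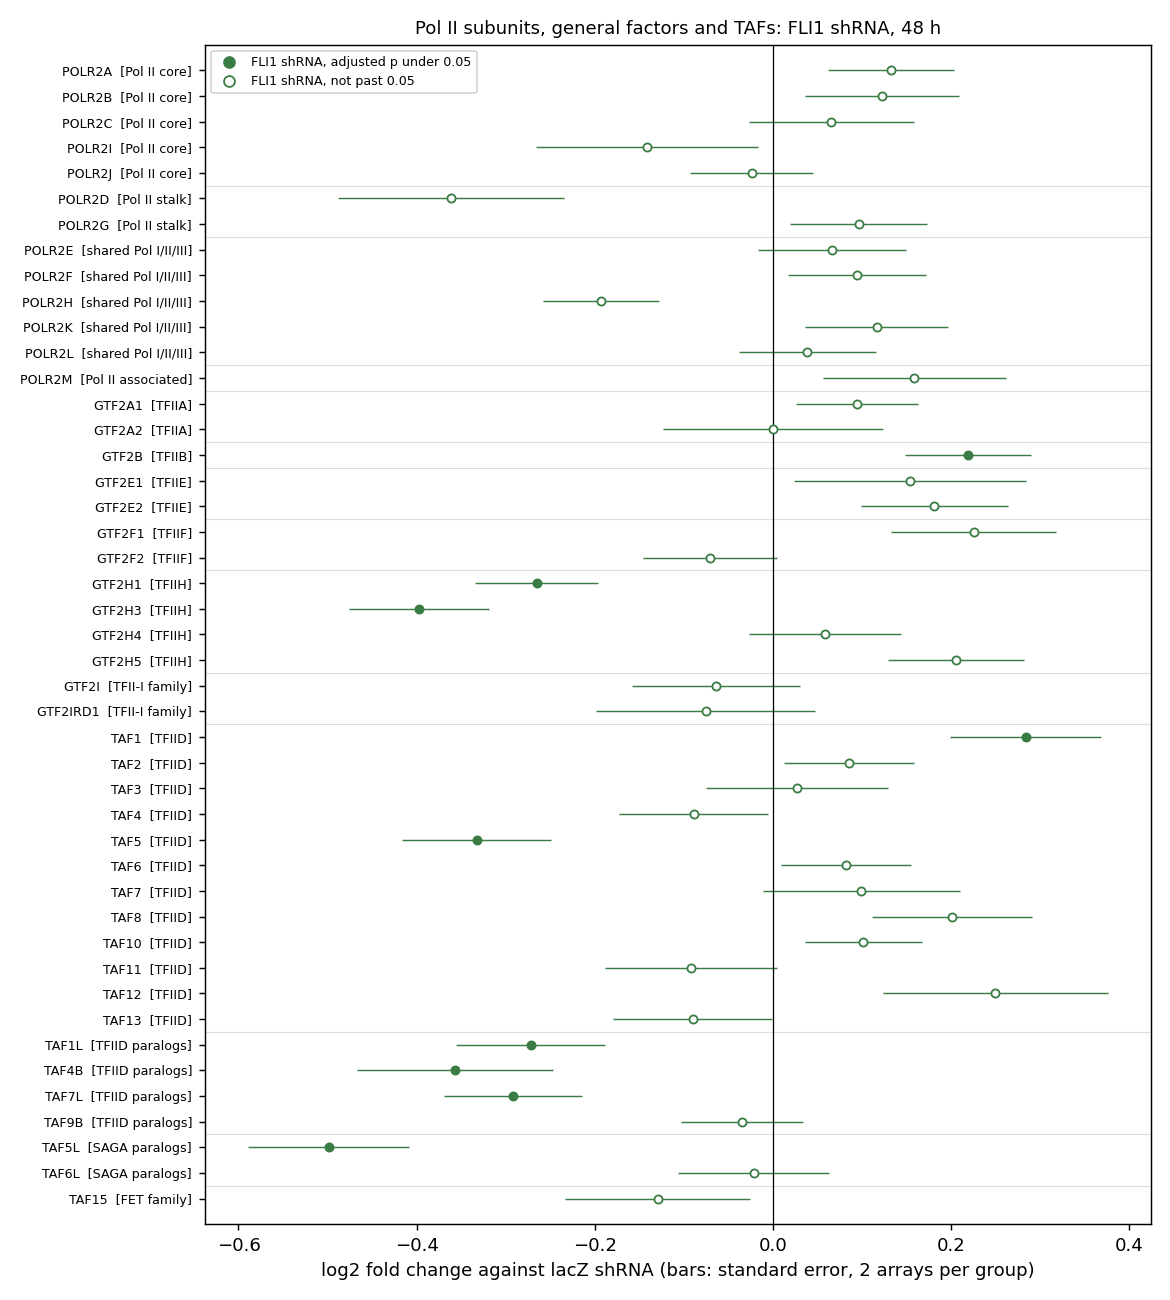
Log2 fold change of each of the 45 members with FLI1 shRNA against lacZ shRNA (horizontal axis, bars show the standard error), grouped by complex; filled points passed an adjusted p of 0.05. TAF5L (−0.50) and GTF2H3 (−0.40) lie farthest left, and the 2 filled points right of 0 are TAF1 and GTF2B.

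Around the members, TBP fell with FLI1 shRNA (−0.35, SE 0.11, adjusted p = 0.043). This call was not checked without single arrays, a check in which the member calls nearest the threshold were lost. Of 30 Mediator genes, 8 rose (26.7%), against 14.6% of all genes, and 2 fell (6.67%), against 9.28%. Among SAGA partners 6 of 14 rose (42.9%) and none fell, led by the acetyltransferase KAT2B (0.70, SE 0.12, adjusted p = 0.0017), beside the fall of TAF5L. The median log2 change of the 14 was 0.14, and with lacZ shRNA against untreated cells it was −0.13. In that comparison none passed, and 6 were lower at an unadjusted p under 0.05 by limma (42.9%), against 11.0% of all genes. A part for this shift of the control virus group in the rises was not tested. Of the other TFIIH subunits, CDK7 (0.46, SE 0.08, adjusted p = 0.002) and the helicase ERCC2 (0.41, SE 0.06, adjusted p = 7.6e-04) rose, beside the falls of GTF2H1 and GTF2H3. Elongation factors rose in 4 of 19 (21.1%) and none fell, with a median log2 change of 0.10. With lacZ shRNA against untreated cells their median was −0.12 and 2 fell (10.5%). For polymerase I 1 of 8 genes fell (12.5%), and for polymerase III 3 of 10 fell (30.0%). Among 12 assembly factors and tail phosphatases 1 rose and 1 fell (8.33% each).

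The vehicle and the control virus were each set against untreated cells. With DMSO no member passed in either direction by limma, against 0.00543% of all genes higher and 0% lower, and 3 members were higher (6.67%) and none lower at an unadjusted p under 0.05, against 4.03% and 3.48% of all genes. With lacZ shRNA no member was higher, against 0.815% of all genes, and 3 were lower (6.67%), against 2.26%. They were POLR2D, with 9.39 and 9.37 with lacZ shRNA, against 9.88 and 10.16 in untreated cells (−0.64, SE 0.13, adjusted p = 0.029), TAF6L, with 9.27 and 9.19, against 9.64 and 9.69 (−0.44, SE 0.08, adjusted p = 0.026), and TAF6, with 9.85 and 9.72, against 10.10 and 10.17 (−0.35, SE 0.07, adjusted p = 0.033). None of the 3 calls held without any single array of the 4 (adjusted p = 0.068 to 0.25).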

How the data were processed

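Log2 signals were deposited for 12 arrays. The authors hybridised labelled total RNA from A673 cells to Affymetrix HuGene 1.0 ST arrays and made the values by RMA (background correction, quantile normalization and probe summary) in the affy package (version: not given in the sources used here). No further normalization was applied in the main analysis. They do not show a change in total RNA per cell that all genes share, and precision is limited by having 2 arrays in a group. All columns were matched to a labelled sample.

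Of 32321 rows, the platform annotation names 1 gene symbol for 19158, several for 1388 and none for 11775; only the first kind was used. For 637 genes with several probe sets the one with the highest mean over all arrays was kept, which left 18404 genes. Each of the 45 members had 1 probe set. Members matched RefSeq by Entrez gene identifier (45 of 45), and spans and promoter windows are those of GRCh38.p14. The files name no build.

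A single limma model (limma 3.58.1, R 4.3.3) with a mean for each of 6 groups was fitted to all 12 arrays, with Benjamini-Hochberg adjustment over 18404 genes within each of 6 comparisons. It was tested on simulated data with independent noise for each gene and array, which cannot cover deviations that the genes of an array share. Members, partner lists and tests were chosen with earlier results of these data known. All members may be named; array values are given for the largest changes (up to 8 in each direction per comparison), for POLR2A, POLR2B, GTF2B, TAF1 and TAF15, and for paralogs. Alternatives left out single arrays or dim genes (below percentile 40), added the replicate number as a block, averaged probe sets, kept all rows, changed the scale or the variance model, or fitted only the 4 arrays compared.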

Additional observations from a re-analysis of the deposited data

How the results depend on the processing

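With 2 arrays per group, calls near the threshold depended on single arrays. Of the 33 member calls at 5 nM against DMSO, 19 were kept in every alternative and 26 in all but the ribosomal protein centring. At 50 nM against DMSO 20 of 32 were kept in every alternative, and 22 of 28 in the direct dose comparison. FLI1 shRNA kept 2 of 9, and lacZ shRNA against untreated cells kept 0 of 3. Most losses are given beside the results; POLR2L was lost at 5 nM without DMSO array 2 (0.18, adjusted p = 0.11) and at 50 nM without DMSO array 2 (adjusted p = 0.19) or 50 nM array 2 (adjusted p = 0.14). Between 50 nM and 5 nM the calls of POLR2C (adjusted p = 0.18 and 0.21), POLR2K (0.095 and 0.10), TAF11 (0.077 and 0.053) and TAF4 (0.086 and 0.081) were each lost without either of a pair of arrays.

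Leaving out 1 array at a time gave 13 to 18 members higher and 13 to 17 lower at 5 nM against DMSO, 12 higher and 15 to 17 lower at 50 nM against DMSO, 12 to 18 higher and 11 to 13 lower at 50 nM against 5 nM, 0 to 3 higher and 2 to 4 lower with FLI1 shRNA, and 0 lower with lacZ shRNA against untreated cells. Centring on ribosomal protein genes gave 6 higher and 28 lower at 5 nM and 5 higher at 50 nM. With FLI1 shRNA the number of higher members was 1 with the replicate block, 1 with the crossed replicate block (chosen after seeing the data), and 0 with all rows, with a further quantile normalization, with median centring and with only the 4 arrays. With lacZ shRNA against untreated cells the number lower was 6 without dim genes, 6 with the trended and robust variance, 0 with all rows and 0 with only the 4 arrays. The DMSO counts stayed at 0 throughout. The median of the members at 50 nM against DMSO, −0.05, became 0.06 with a further quantile normalization and 0.03 with median centring. The cause of these shifts was not tested.

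After ribosomal protein centring the direction at 5 nM turned for GTF2H4 (−0.10), GTF2H5 (−0.028), POLR2C (−0.28), POLR2G (−0.020), POLR2L (−0.10), POLR2M (−0.24), TAF10 (−0.035), TAF6 (−0.32), TAF6L (−0.28), TAF8 (−0.10) and TAF9B (−0.32), and at 50 nM for GTF2H1 (−0.23) and POLR2L (−0.037). No direction turned in the other alternatives among members called in either setting. Samples with the same replicate number did not deviate in the same direction throughout (correlations of −0.45 to 0.17 over the comparisons), so the numbers were not taken to pair the samples. Negative values, the largest for lacZ shRNA against untreated cells (−0.45), mean opposite deviations of samples with the same number. A block with crossed numbers was run for FLI1 shRNA against lacZ shRNA only. With the replicate block, members higher and lower were 16 and 17 at 5 nM, 13 and 18 at 50 nM, and 14 and 13 between the doses. They were 1 and 7 for FLI1 shRNA, and 0 and 2 in the comparison of lacZ shRNA against untreated cells.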
